A study of Mus musculus with 4 samples.

Results

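The genes that sort, dock and fuse intracellular vesicles were followed in sorted cells of the newborn mouse inner ear. They were chosen by symbol alone: every gene of the expression table whose symbol begins with Rab, Syt, Stx, Vamp or Snap followed by a digit, or with Stxbp or Cplx. The rule took 102 of 12814 genes, of which 101 were protein-coding and 1, *Vamp7-ps*, is named as a pseudogene. All 102 were found in the gene annotation of the mm9 mouse genome.

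RNA-seq was performed on hair cells (HCs), the mechanosensory cells of the ear, and on epithelial non-sensory cells (ENSCs), each taken from the cochlea, which serves hearing, and from the vestibular organs, which serve balance. All cells came from *Atoh1/nGFP* mice on a C57BL/6 background, which carry a nuclear green fluorescent protein in HCs under *Atoh1* control, and inner ears of several mice were pooled for a sort. HCs carried the fluorescent protein together with the epithelial surface protein CD326, and ENSCs carried CD326 alone. The table held 1 column for each of the 4 populations, called a library here, and whether a column is a pool, a mean or 1 replicate is not given in the sources used here. No value thus has a replicate error, no test was run, and the sole criterion was a signal 3 times as high in 1 library of a pair, or more.

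Rab proteins are small GTPases that mark membranes and recruit the machinery that moves and tethers vesicles. SNARE proteins of the vesicle (VAMPs) and of the target membrane (syntaxins and SNAPs) zip together to fuse both membranes, and Sec1/Munc18 proteins guide that assembly. Synaptotagmins are C2-domain proteins, several of which bind calcium and trigger fusion, and complexins bind the assembled SNARE complex. HCs release glutamate at ribbon synapses, where otoferlin (*Otof*) is known to be the calcium sensor of fusion.

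All signals are read counts quantile-normalized over the 4 libraries with a lowest value of 20. The summed signal was the same in each library (7830343), so sequencing depth is unknown and no counting error can be given. Low signals carried no order in the lowest part of each library, up to 24.25 in cochlear HCs, 22.75 in cochlear ENSCs, 30.5 in vestibular HCs and 20 in vestibular ENSCs. Where the lower of a pair lay in that tied range, the fold is given as a lower bound against its top, and where both lay in it no fold is given. Of the members, 77 were above the tied range in all libraries, and between 6 (cochlear ENSCs) and 15 (vestibular HCs) lay in it.

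The libraries matched their labels in the HC markers, with all 10 of 10 past 3-fold towards HCs in each organ. Across all genes the vestibular HC to ENSC log2 ratio ran with the GC content of the transcript (Spearman rho -0.395 over 10358 genes above 20 in both libraries), whereas the cochlear ratio hardly did (-0.04 over 10722). Over the members the coefficients were -0.322 (87 genes) and 0.083 (90 genes). These describe single libraries, and genes in them share amplification and normalization. A correction for GC content and length moved the vestibular ratio of 41 of the 102 members by over 1.5 times and turned the direction of 12, and it did so for 0 and 2 members in the cochlea. Where it took the HC to ENSC ratio of a member described here across 3-fold, the corrected value is given. For genes that are not members, no corrected value is given. Past 3-fold both before and after it, the vestibular log2 ratios of *Snap25*, *Syt4*, *Syt7*, *Rab3a*, *Rab3c*, *Rab15* and *Rab39b* moved to 5.94, 3.21, 5.65, 4.52, 2.01, 2.95 and 2.10.

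In the cochlea 16 of the 102 members were at least 3-fold higher in HCs than in ENSCs, which is 15.7% of them, beside 8.39% of all genes. Only 3 members (2.94%) were at least 3-fold lower, beside 9.2% of all genes. In the vestibular system 22 members (21.6%) were higher in HCs, beside 13.8% of all genes, and 7 (6.86%) were lower, beside 14.3%. With the ratios corrected for length and GC content, 4 members in place of 7 were lower in vestibular HCs (3.92%), and the share of all genes fell as well, to 10%. At a threshold of 2-fold the lower members came close to the share of all genes, with 17 in cochlear HCs (16.7%, beside 17.4%) and 22 in vestibular HCs (21.6%, beside 24.5%). The typical member did not stand apart, since the median log2 ratio of the members was 0 (cochlea) and -0.03 (vestibular system), and that of all genes 0 and -0.0045. The members above and below a ratio of 1 numbered 50 and 50 (cochlea) and 49 and 52 (vestibular system). The higher HC signals thus lay in a minority of members, and which ones they were is described below by role.

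Past 3-fold towards HCs in both organs were 11 members, beside 4.99% of all genes. They were *Snap25*, *Syt2*, *Syt4*, *Syt7*, *Syt13*, *Syt14*, *Stx2*, *Rab3a*, *Rab3b*, *Rab3ip* and *Rab36*. A single member, *Rab31*, was lower in HCs in both, beside 4.66% of all genes. No member was past 3-fold in opposite directions. A further 5 of the 102 passed towards HCs in just the cochlea and 11 in just the vestibular system, beside 421 and 1084 of all 12814 genes. In neither organ did 66 members (64.7%, beside 64.4% of all genes) pass 3-fold. Whether the ratio of a member differed between organs was not tested.

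**Figure D1:**
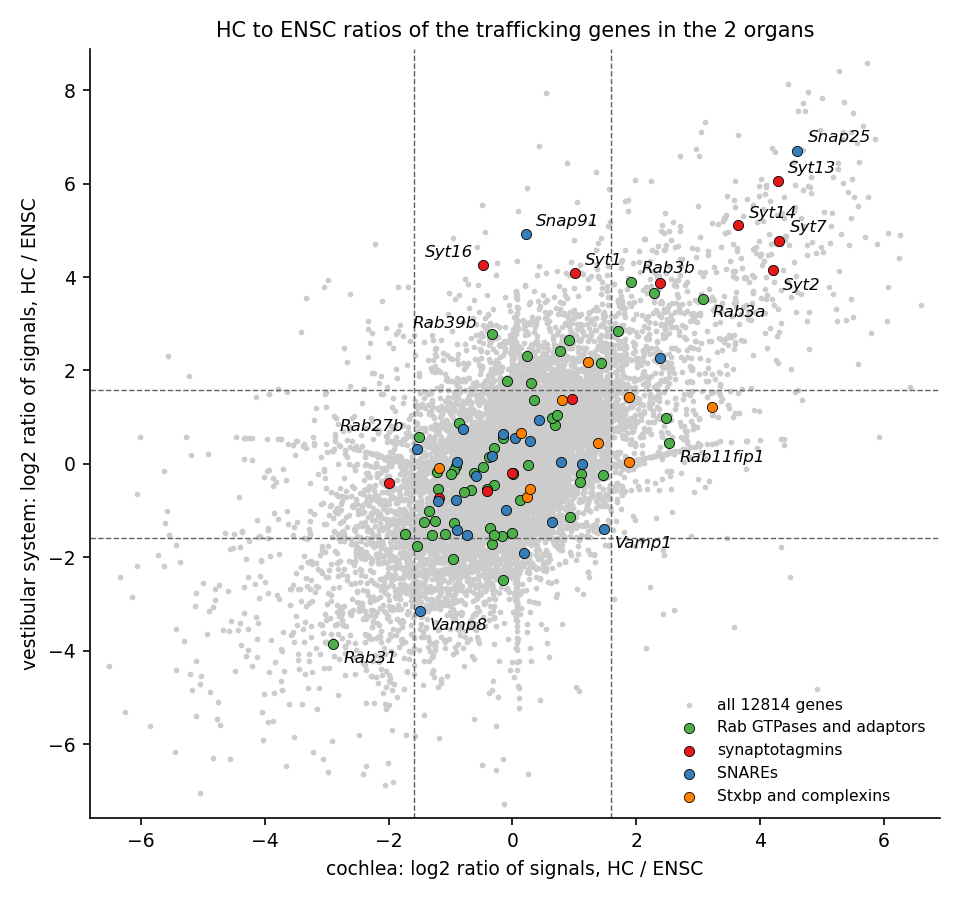
Log2 ratio of the HC to the ENSC signal in the cochlea (x axis) and in the vestibular system (y axis) for all 12814 genes (grey) and the 102 trafficking genes (coloured by family, *Snap91* with the SNAREs by its symbol), 1 library per population; dashed lines mark a 3-fold ratio. The 11 members in the upper right field are those higher in HCs in both organs, and *Rab31* lies alone among members in the lower left field.

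Synaptotagmins made up 5 of the 11 members past 3-fold towards HCs in both organs. Of 12 measured, 5 were at least 3-fold higher in cochlear HCs and 1 was lower, and 7 were higher in vestibular HCs and none lower. Of all genes 8.39% were higher and 9.2% lower in cochlear HCs, and 13.8% were higher and 14.3% lower in vestibular HCs. The median log2 ratio of the 12 was 0.99 for the cochlea and 3.98 for the vestibular system.

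*Syt7*, a calcium sensor of slow, high-affinity kinetics (chr19:10463580-10527671 of mm9, plus strand), had a signal of 2291.25 in cochlear HCs, 115.75 in cochlear ENSCs, 673.25 in vestibular HCs and 24.5 in vestibular ENSCs. HCs were 19.8-fold higher in the cochlea and 27.5-fold higher in the vestibular system. Both HC libraries thus lay above both ENSC libraries, and the cochlear HC signal was also 3.4-fold above the vestibular one.

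*Syt2*, a fast calcium sensor of central and neuromuscular synapses (chr1:136605877-136649726, plus strand), gave 442.5 in cochlear HCs, 24 in cochlear ENSCs, 357 in vestibular HCs and 20 in vestibular ENSCs. The HC signal was 18.4-fold higher in the cochlea and at least 17.9-fold higher in the vestibular system. Both HC signals were within 1.24-fold of each other, and both ENSC signals were close to or at the lowest value of the table.

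3 synaptotagmins that are thought not to trigger fusion by binding calcium also had both HC libraries above both ENSC libraries. *Syt13* (chr2:92755255-92796215, plus strand) had 745.25 in cochlear HCs, 38.25 in cochlear ENSCs, 1448.5 in vestibular HCs and 21.75 in vestibular ENSCs. *Syt14* (chr1:194723404-194861911, minus strand) had 579.25, 46.25, 721.75 and 20.75 in that order. *Syt4*, found on dense-core vesicles and in the Golgi, had 168.25, 32.25, 328.75 and 22.5. All 3 therefore had a higher signal in vestibular than in cochlear HCs, by 1.94-fold, 1.25-fold and 1.95-fold. HCs exceeded ENSCs by 19.5-fold, 12.5-fold and 5.22-fold in the cochlea, and by 66.6-fold, 34.8-fold and 14.6-fold in the vestibular system.

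*Syt1*, the fast calcium sensor of most forebrain synapses (chr10:107934706-108448038, minus strand), behaved differently in the ENSCs. Its signal was 2652.75 in cochlear HCs, 1316.75 in cochlear ENSCs, 1197.75 in vestibular HCs and 70.75 in vestibular ENSCs. HCs were 2.01-fold higher in the cochlea and 16.9-fold higher in the vestibular system. The cochlear ENSCs had a higher signal than the vestibular HCs, and exceeded the vestibular ENSCs 18.6-fold.

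*Syt6*, a calcium-binding member known from sperm acrosome exocytosis (chr3:103379154-103449490, plus strand), went with the organ. The signal was 646.25 in cochlear HCs, 332 in cochlear ENSCs, 52.25 in vestibular HCs and 20 in vestibular ENSCs. Cochlear HCs were 12.4-fold above vestibular HCs, and cochlear ENSCs at least 16.6-fold above vestibular ENSCs, while the HC to ENSC ratio was 1.95 in the cochlea and at least 2.61 in the vestibular system. With the correction for length and GC content the vestibular log2 ratio of *Syt6* became 1.68, which is past 3-fold.

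*Syt16* (chr12:75098748-75368903, plus strand), a relative of *Syt14*, had its single high signal in vestibular HCs: 39.25 in cochlear HCs, 54.25 in cochlear ENSCs, 380.25 in vestibular HCs and 20 in vestibular ENSCs. It was 9.69-fold higher in vestibular than in cochlear HCs and at least 19-fold higher in vestibular HCs than in vestibular ENSCs. In the cochlea it lay 1.38-fold lower in HCs. *Syt6* and *Syt16* thus had opposite organ patterns among HCs.

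*Syt9*, a calcium sensor of neuroendocrine secretion, was the synaptotagmin that was lower in cochlear HCs, with 20 against 79.75 in ENSCs, at least 3.29-fold. Its vestibular signals, 22 in HCs and 29.25 in ENSCs, both lay in or near the tied range. *Syt3* and *Syt5* did not exceed 29.75 in any library. *Syt11*, at 85, 194.25, 160.75 and 267.25 in cochlear HCs, cochlear ENSCs, vestibular HCs and vestibular ENSCs, was below 3-fold either way.

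Divided by exonic length, which is the scale on which genes can be set beside each other, the synaptotagmins took a different order in each HC library. In cochlear HCs *Syt7* had 329 signal units per kb, *Syt1* 318, *Syt14* 301, *Syt13* 198, *Syt6* 112, *Syt2* 64.3 and *Syt4* 43.1. In vestibular HCs *Syt13* came first with 385 per kb, followed by *Syt14* with 375, *Syt1* with 144, *Syt16* with 108, *Syt7* with 96.6, *Syt4* with 84.3 and *Syt2* with 51.9. With 1 library each, neighbours in these orders cannot be said to differ.

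**Figure D2:**
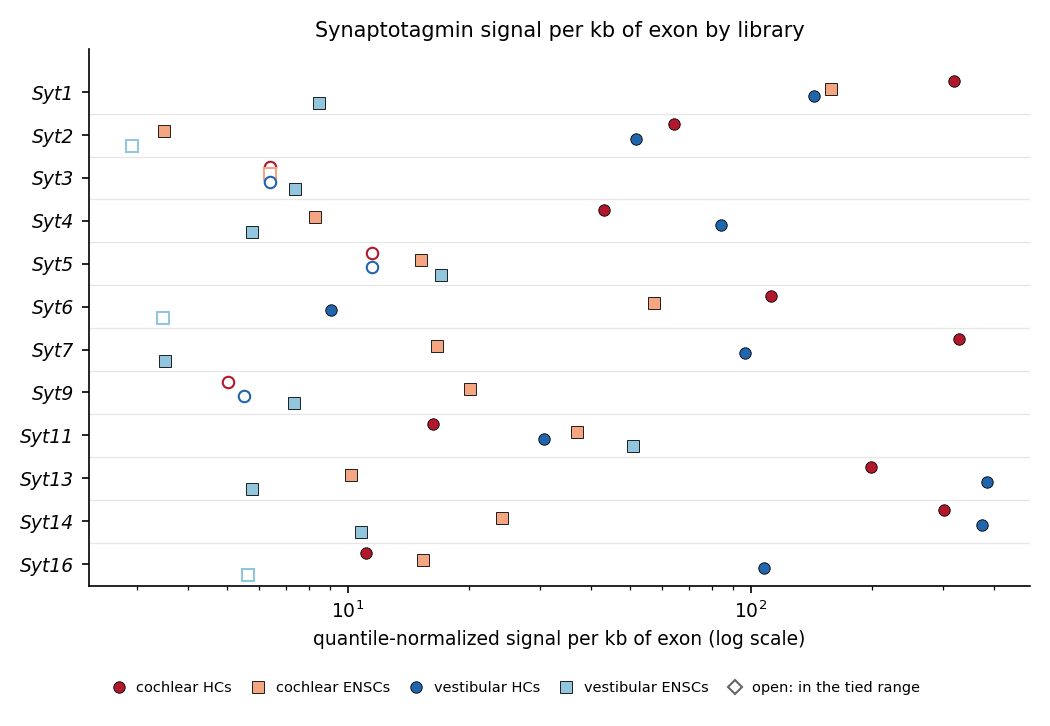
Quantile-normalized signal per kb of exon (x axis, log scale) of the 12 synaptotagmins in each of the 4 libraries; circles are HCs, squares ENSCs, red the cochlea, blue the vestibular system, and open symbols lie in the tied range of their library. *Syt2*, *Syt4*, *Syt7*, *Syt13* and *Syt14* show both HC circles to the right of both ENSC squares, while the cochlear ENSC square of *Syt1* lies at 158 per kb.

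Among the 23 genes with a SNARE symbol (12 syntaxins, 6 VAMPs and 5 SNAPs), *Snap25* had the highest HC to ENSC ratio in both organs. It encodes the plasma membrane SNARE that pairs with syntaxin at synapses (chr2:136539189-136608164, plus strand). Its signal was 1291 in cochlear HCs, 53.25 in cochlear ENSCs, 2090.5 in vestibular HCs and 20 in vestibular ENSCs. HCs were 24.2-fold higher in the cochlea and at least 105-fold higher in the vestibular system, and no other member of the 102 had a larger uncorrected ratio in either organ. With the length and GC correction *Syt13* was above it in the vestibular system (log2 ratio 6.53 against 5.94), and with a floor of 100 *Syt7* was above it in the cochlea (4.31 against 3.69). Its relatives *Snap23*, *Snap29* and *Snap47*, which act in fusion more widely, were within 3-fold in both organs, with log2 ratios between -1.20 (*Snap23*, cochlea) and 0.17 (*Snap29*, vestibular).

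*Snap91*, which meets the symbol rule but encodes the clathrin assembly protein AP180 of synaptic vesicle endocytosis and is no SNARE, was likewise lowest in vestibular ENSCs (chr9:86659981-86775489, minus strand). It had 471.75 in cochlear HCs, 405.5 in cochlear ENSCs, 721.25 in vestibular HCs and 23.75 in vestibular ENSCs. The HC to ENSC ratio was 1.16 for the cochlea and 30.4 for the vestibular system. The vestibular ENSC library was the one that stood apart, 17.1-fold below the cochlear ENSCs.

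*Stx2*, a syntaxin of the plasma membrane, was the only one of 12 syntaxins past 3-fold towards HCs, and it was so in both organs. It had 146.75 in cochlear HCs, 28.25 in cochlear ENSCs, 108 in vestibular HCs and 22.5 in vestibular ENSCs, which is 5.19-fold and 4.8-fold. *Stx1a*, the syntaxin of conventional synapses, had 43.5 in cochlear HCs and 20, the lowest possible signal, in the other libraries. *Stx3*, the syntaxin named for ribbon synapses of the retina, was instead at 267.25 and 295.25 in cochlear and vestibular HCs and at 501.5 and 504.75 in the ENSCs, 1.88-fold and 1.71-fold lower in HCs. *Stx4a* was 3.75-fold lower in vestibular HCs (46.75 against 175.25) and 1.14-fold higher in cochlear HCs (67.5 against 59). The syntaxins of the Golgi, endosomes and ER numbered 8, and none was past 3-fold in either organ, although *Stx17*, of autophagosomes, reached a vestibular log2 ratio of -1.82 after the correction (-1.43 before).

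The VAMPs, the SNAREs of the vesicle side, had no member past 3-fold towards HCs in either organ. Of 6 measured, including *Vamp7-ps*, 1 was higher and 5 lower in cochlear HCs by any amount, and 2 were higher and 4 lower in vestibular HCs, where 46.6% and 50.1% of all genes had a ratio below 1. The median log2 ratio was -0.81 for the cochlea and -0.82 for the vestibular system. *Vamp2*, the main VAMP of synapses, had 965.5 in cochlear HCs, 1596.75 in cochlear ENSCs, 777.25 in vestibular HCs and 2247.75 in vestibular ENSCs. It was thus 1.65-fold and 2.89-fold lower in HCs, and below the 3-fold criterion in both organs, although its usual partner *Snap25* was higher. With the length and GC correction its vestibular log2 ratio moved from -1.53 to -0.71.

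*Vamp8*, which serves regulated secretion in exocrine and blood cells and late endosomal fusion, had 32.75 in cochlear HCs, 92.5 in cochlear ENSCs, 27.5 in vestibular HCs and 245.25 in vestibular ENSCs. Cochlear HCs were 2.82-fold lower, and vestibular HCs at least 8.04-fold. *Vamp1*, the VAMP of spinal and neuromuscular synapses, had 134.25, 48, 73 and 191.75 in the same order. Its HC signal was 2.8-fold higher in the cochlea and 2.63-fold lower in the vestibular system, a difference in direction that no replicate can check.

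Of the 8 syntaxin-binding genes, 7 had an HC to ENSC ratio above 1 for the cochlea and 5 for the vestibular system, of which 2 and 1 passed 3-fold. Of all genes 47.5% and 46.8% had a ratio above 1, and with the length and GC correction the vestibular count was 3 of 8, with *Stxbp3a* (0.65 to -0.05) and *Stxbp4* (0.45 to -0.10) turned. *Stxbp5* and *Stxbp5l*, the tomosyns that hold syntaxin away from fusion, passed 3-fold in 1 organ each and are named because of that. *Stxbp5* was 3.69-fold higher in cochlear HCs (1517.25 against 411) and 2.68-fold in vestibular HCs (1014.25 against 378.75), where its log2 ratio of 1.42 became 0.76 with the correction. *Stxbp5l* was at least 4.53-fold higher in vestibular HCs (90.5 against 20).

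Complexin signals were low. *Cplx1* had 73.5 in cochlear HCs, 20.5 in vestibular HCs and 20 in both ENSC libraries, at least 3.23-fold higher in cochlear HCs, and the vestibular pair lay in the tied range. *Cplx2* had 183.75 and 217.25 in cochlear and vestibular HCs while the ENSCs had 106 and 84.25, 1.73-fold and 2.58-fold. After correction for length and GC content the vestibular log2 ratio of *Cplx2* was 2.02. *Cplx3*, a complexin of ribbon synapses in the retina, was not analysed here.

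**Figure D3:**
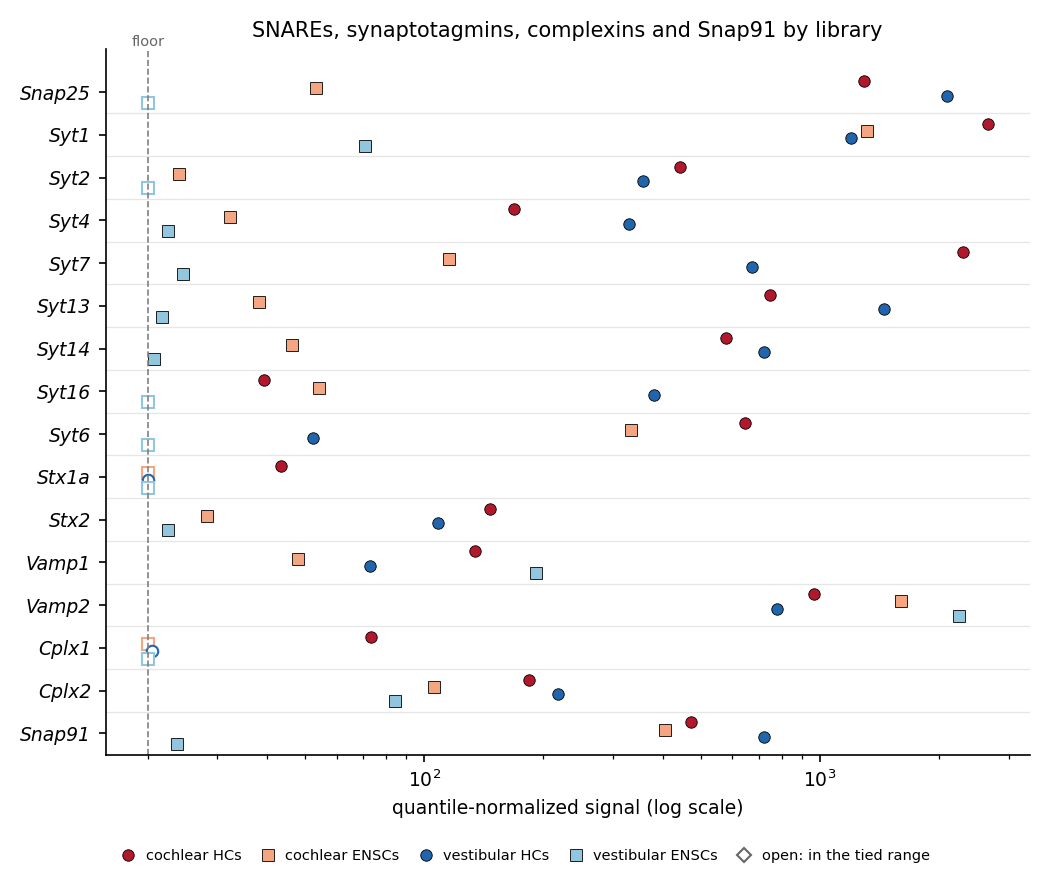
Quantile-normalized signal (x axis, log scale) of 16 SNARE, synaptotagmin and complexin genes (*Snap91* included) in the 4 libraries; circles are HCs, squares ENSCs, red the cochlea, blue the vestibular system, open symbols lie in the tied range and the dashed line is the lowest value of 20. *Snap25*, *Syt2*, *Syt4*, *Syt7*, *Syt13*, *Syt14*, *Stx2*, *Cplx2* and *Snap91* have both HC libraries above both ENSC libraries, and *Vamp2* has both below.

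Of the 49 Rab GTPases, at 3-fold or more, 4 were higher and 1 lower in cochlear HCs, where 8.39% and 9.2% of all genes were. In vestibular HCs 10 were higher and 5 lower, where 13.8% and 14.3% of all genes were. Their median log2 ratio was -0.29 for the cochlea and -0.22 for the vestibular system. By any amount, 31 of the 49 were lower in HCs in each organ, beside 46.6% of all genes for the cochlea and 50.1% for the vestibular system.

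Of the 7 secretory Rabs, which accompany vesicles to the plasma membrane, *Rab3a* had the largest ratio in the cochlea (chr8:73278578-73282576, plus strand). Its signal was 237.25 in cochlear HCs, 28.25 in cochlear ENSCs, 325.5 in vestibular HCs and 28 in vestibular ENSCs. This is 8.4-fold higher in cochlear HCs and 11.6-fold higher in vestibular HCs. *Rab3a* is the main Rab of synaptic vesicles, and its ENSC signals were nearly equal in both organs.

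*Rab3b* (chr4:108551668-108615929, plus strand) had 258.25 in cochlear HCs, 68.5 in cochlear ENSCs, 303 in vestibular HCs and 20.25 in vestibular ENSCs, 3.77-fold and 15-fold higher in HCs. *Rab3c* had 100.75, 53.75, 126.25 and 20 in that order, 1.87-fold and at least 6.31-fold higher. *Rab3d*, the isoform of exocrine and endocrine granules, had 62.75, 32.75, 20 and 44. *Rab3a*, *Rab3b* and *Rab3c* thus shared the direction in both organs, while *Rab3d* was 1.92-fold higher in cochlear HCs and lower in vestibular HCs by at least 1.44-fold.

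The proteins named for their work on Rab3 were uneven. *Rab3ip* (Rabin8), an exchange factor that activates Rab8 in cilium formation (chr10:116342837-116387436, minus strand), had 688 in cochlear HCs, 141.75 in cochlear ENSCs, 842.75 in vestibular HCs and 66.5 in vestibular ENSCs. It was 4.85-fold and 12.7-fold higher in HCs. Its substrates did not share this order, since *Rab8a* had 122.25, 138, 108.5 and 316.5 and *Rab8b* 613.5, 1226.5, 563 and 657.25 in the same libraries. *Rab3gap1* and *Rab3gap2*, the subunits of the Rab3 GTPase-activating complex, lay between 1.01-fold and 1.97-fold in both organs.

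The Rab27 pair, which dock melanosomes and secretory granules, was not higher in cochlear HCs. *Rab27b* had 440 in cochlear HCs, 1252.5 in cochlear ENSCs, 886.75 in vestibular HCs and 595.25 in vestibular ENSCs, 2.85-fold lower in cochlear HCs and 1.49-fold higher in vestibular HCs. *Rab27a* was at 20 in both HC libraries and at 47.75 and 46.75 in the ENSCs. With the length and GC correction the cochlear log2 ratio of *Rab27b* was -1.71, which is past 3-fold, and the vestibular one turned from 0.58 to -0.26.

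Of the 7 early endosome Rabs, none was higher in HCs in the vestibular system and none in the cochlea, where *Rab20* lay at 20 in both libraries. *Rab31* (chr17:66001066-66122092, minus strand), which moves cargo between the Golgi and endosomes, had 23.75 in cochlear HCs, 176.75 in cochlear ENSCs, 35.5 in vestibular HCs and 513.75 in vestibular ENSCs. Cochlear HCs were lower by at least 7.29-fold, and vestibular HCs by 14.5-fold. *Rab5c*, an isoform of the master Rab of early endosomes, was 3.29-fold lower in vestibular HCs (85.5 against 281.5) and 1.25-fold lower in cochlear HCs (213.25 against 266.75). Its vestibular log2 ratio of -1.72 became -0.98 with the correction for length and GC content, below 3-fold. *Rab5a* and *Rab5b* lay between 1.14-fold and 1.58-fold lower in HCs, but 37.5% and 62.5% of their 50-nt stretches also occur elsewhere in the genome, so that reads may have been split or lost.

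Of the 7 late endosome and lysosome Rabs, 5 were lower in cochlear HCs and 6 in vestibular HCs by any amount. With the correction the vestibular count was 5, since *Rab24* turned from -0.24 to 0.42, and *Rab32*, *Rab34* and *Rab38* lay in the tied range of both HC libraries. *Rab7*, the Rab of late endosomes, had 473.5 in cochlear HCs, 1206.25 in cochlear ENSCs, 893.5 in vestibular HCs and 1786.5 in vestibular ENSCs, 2.55-fold and 2-fold lower in HCs (30% of its stretches occur elsewhere). Before the correction *Rab34* was the only one past 3-fold, lower in vestibular HCs by at least 3.22-fold (23.75 against 98.25). With the correction the cochlear log2 ratio of *Rab24* moved from 1.47 to 1.63, which is past 3-fold.

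Recycling Rabs return internalized membrane to the cell surface. Of 7, none was past 3-fold in the cochlea and 2 were higher in vestibular HCs, *Rab15* 4.44-fold (548.5 against 123.5) and *Rab11a* 3.3-fold (3078.75 against 932). *Rab11b* differed by organ, with 112.75 in cochlear HCs, 138 in cochlear ENSCs, 1039.5 in vestibular HCs and 822.75 in vestibular ENSCs. It was 9.22-fold higher in vestibular than in cochlear HCs and 5.96-fold higher in vestibular than in cochlear ENSCs. The HC to ENSC log2 ratio of *Rab11b* was -0.29 for the cochlea and 0.34 for the vestibular system, the latter 1.07 with the length and GC correction. Its value is uncertain, since 47.5% of its stretches occur elsewhere in the genome. *Rab11fip1*, an effector that tethers Rab11 to recycling endosomes, was 5.75-fold higher in cochlear HCs (1522 against 264.5) and 1.35-fold higher in vestibular HCs (1034.75 against 763.75). *Rab11fip5*, another of these effectors, had 23 in cochlear HCs, 76.75 in cochlear ENSCs, 95.75 in vestibular HCs and 272.25 in vestibular ENSCs, at least 3.16-fold and 2.84-fold lower in HCs. Its vestibular log2 ratio moved from -1.51 to -0.36 with the correction for length and GC content.

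Of the 11 Rabs of the ER and Golgi, 10 were within 3-fold for the cochlea and 9 for the vestibular system. *Rab1*, which carries traffic from the ER to the Golgi, ranged from 6083.75 to 10450.75, and *Rab6a*, of the Golgi, from 3694.75 to 4392.5. *Rab6b*, the neuronal Rab6, was 5.6-fold higher in cochlear HCs (494.25 against 88.25) and 1.97-fold in vestibular HCs (259.5 against 132). *Rab39b*, a neuronal Rab whose loss causes intellectual disability in people, had 217.75 in cochlear HCs, 273.25 in cochlear ENSCs, 701.75 in vestibular HCs and 102.5 in vestibular ENSCs. It was 6.85-fold higher in vestibular HCs and 1.25-fold lower in cochlear HCs. *Rab43* was 2.92-fold lower in cochlear HCs (43 against 125.5) and 3.4-fold lower in vestibular HCs (89.75 against 304.75), but its corrected vestibular log2 ratio of -0.85 is below 3-fold.

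*Rab36* (chr10:74499803-74517493, plus strand), of the Golgi and late endosomes, had 435.75 in cochlear HCs, 134 in cochlear ENSCs, 593.75 in vestibular HCs and 82.5 in vestibular ENSCs, 3.25-fold and 7.2-fold higher in HCs. *Rab12*, which regulates the breakdown of recycling receptors, went the other way with 179.5, 482.25, 118.75 and 282, 2.69-fold and 2.37-fold lower. *Rab23* and *Rab28*, Rabs linked to cilia, were at least 3-fold higher in vestibular HCs only. *Rab28* had 760 in cochlear HCs, 647.5 in cochlear ENSCs, 728 in vestibular HCs and 147.25 in vestibular ENSCs, so that 1 library was low and the other 3 were alike. *Rab23* had 174.5, 186, 291 and 85.25, and *Rab40b*, the last Rab higher in vestibular HCs, 102.25, 60, 107.75 and 20.25. *Rab37*, a Rab of secretory granules, was instead high in vestibular ENSCs, at 145 against 26 in vestibular HCs.

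Members named above that the naming rule did not choose (*Rab6b*, *Rab11a*, *Rab11fip1*, *Rab15*, *Rab23*, *Rab28*, *Rab34*, *Rab37*, *Rab40b*, *Stx4a*, *Stxbp5* and *Stxbp5l*) were picked after their values were seen, because they passed 3-fold in 1 organ. Of these, *Rab11a* (1.11), *Rab23* (1.51), *Rab34* (-0.94), *Stx4a* (-0.99) and *Stxbp5l* (1.37) had a vestibular log2 ratio inside 3-fold after the correction for length and GC content. Genes below 3-fold that the rule did not choose were given for contrast with their families.

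**Figure D4:**
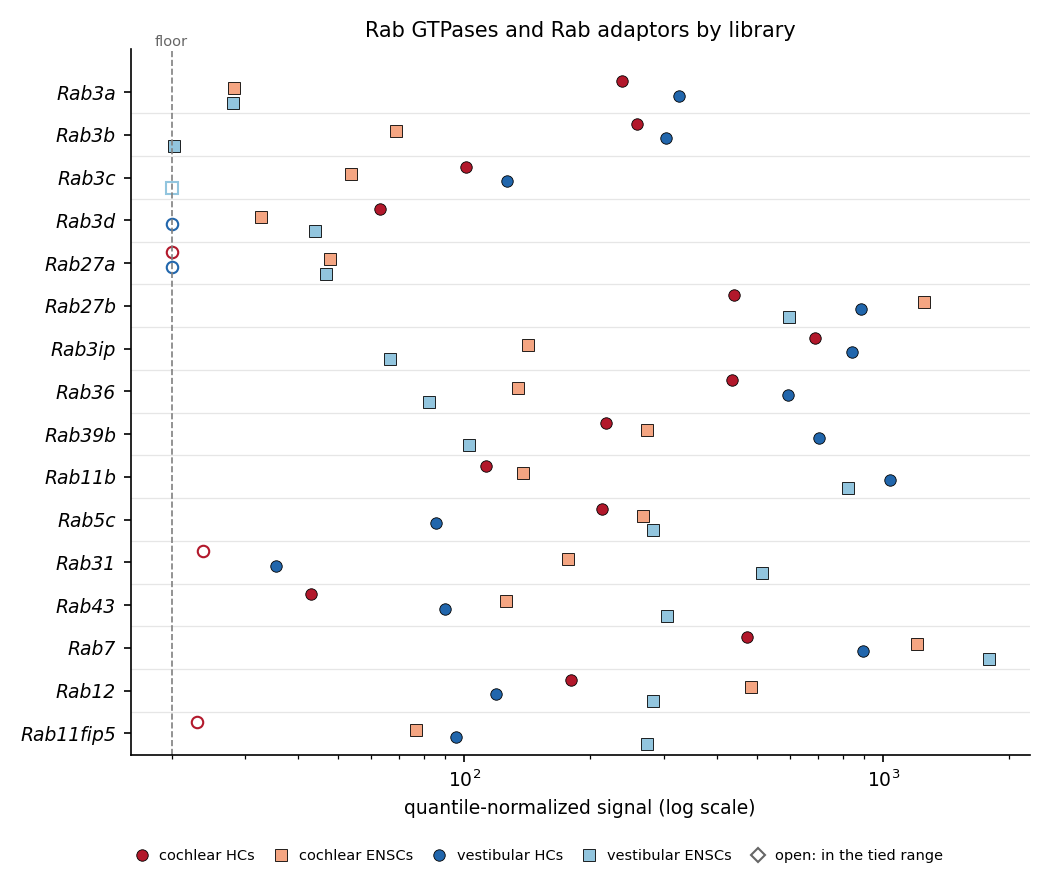
Quantile-normalized signal (x axis, log scale) of 16 Rab and Rab adaptor genes in the 4 libraries; circles are HCs, squares ENSCs, red the cochlea, blue the vestibular system, open symbols lie in the tied range and the dashed line is the lowest value of 20. *Rab3a*, *Rab3b*, *Rab3c*, *Rab3ip* and *Rab36* have both HC libraries above both ENSC libraries, *Rab31*, *Rab43*, *Rab7* and *Rab12* have the HC library of each organ below its ENSC library, and *Rab11b* separates by organ.

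**Figure D5:**
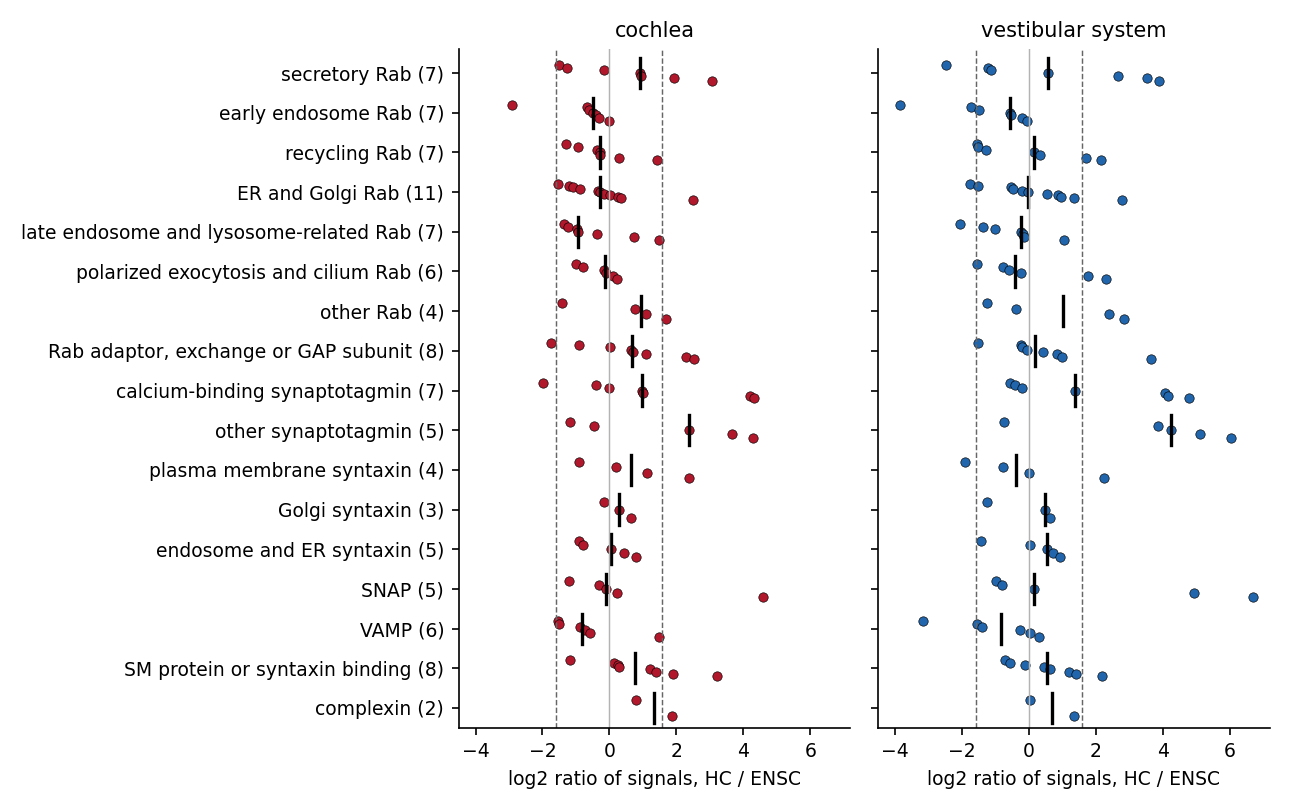
Log2 ratio of the HC to the ENSC signal (x axis) of every member by role, with the number of genes in brackets, in the cochlea (left) and the vestibular system (right); each point is a gene, black bars are medians and dashed lines mark a 3-fold ratio. The synaptotagmins reach the right side in both organs, *Snap25* is the point farthest right, and the early endosome Rabs lie at or below 0.

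Between the HCs of the organs, few members differed. Cochlear HCs were at least 3-fold higher in 5 members (4.9%, beside 4.21% of all genes) and lower in 4 (3.92%, beside 5.09%). With a signal of 200 or more in the higher library, the cochlear side was led by *Syt6* and *Syt7* and the vestibular side by *Syt16*, *Rab11b* and *Rab39b*. *Rab39b* was 3.22-fold higher in vestibular HCs. The shares are close to those of all genes, and only 2 of the 5 cochlear members, *Syt6* and *Syt7*, had a signal of at least 100 in any library.

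Between the ENSCs, 7 members passed 3-fold towards the cochlea (6.86%, beside 7.8% of all genes) and 5 towards the vestibular system (4.9%, beside 7.94%). *Syt1* (18.6-fold), *Snap91* (17.1-fold) and *Syt6* (at least 16.6-fold) were the first 3 of the cochlear side, followed by *Vamp7-ps* (at least 6.21-fold), *Syt7* (4.72-fold), *Rab28* (4.4-fold) and *Rab3b* (3.38-fold). The vestibular side held *Rab11b* (5.96-fold), *Rab37* (5.86-fold), *Vamp1* (3.99-fold), *Rab11fip5* (3.55-fold) and *Stx5a* (3.14-fold, a syntaxin of ER to Golgi traffic, 418.75 against 133.25). With the correction for length and GC content *Rab11fip5* and *Stx5a* came inside 3-fold, with log2 ratios of cochlear to vestibular ENSCs of -0.97 (-1.83 before) and -1.24 (-1.65 before). *Rab31* passed it towards the vestibular system (-1.60) and *Rab15* (1.86), *Rab40b* (1.63) and *Syt9* (1.67) towards the cochlea. That left 10 members past 3-fold towards the cochlea (9.8%, beside 7% of all genes) and 4 towards the vestibular system (3.92%, beside 5.31%). This contrast shares its libraries with the HC to ENSC contrasts and is not independent of them. The log2 ratios of the members ran with GC content in it (Spearman rho -0.405 over 89 genes, beside -0.453 over 10475 genes in all).

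Markers of other cells were read in the same libraries. Neurons express most of the release genes, and of 16 neuron markers 7 were in the table and 9 were not analysed here, *Tubb3* among them. In HCs 2 of the 7 were at least 3-fold higher and 2 lower in the cochlea, and 3 were higher and none lower in the vestibular system. The summed signal of the 7 was 4798.25 in cochlear HCs, 1253.5 in cochlear ENSCs, 5516.25 in vestibular HCs and 313.5 in vestibular ENSCs. *Nefl* and *Nefm*, the neurofilament genes that made up most of the HC sum, had 2380.75 and 1995.25 in cochlear HCs and 2470 and 2121.25 in vestibular HCs. *Stmn2*, a marker of growing axons, was in turn at 30.75 and 22 in the HCs and at 81.5 and 20 in the ENSCs. *Dcx*, of young neurons, had 815.5 in cochlear ENSCs, against 78.5, 153 and 118 in cochlear HCs, vestibular HCs and vestibular ENSCs. *Elavl4* had 271.5 in cochlear HCs, 101.25 in cochlear ENSCs, 586.75 in vestibular HCs and 20.5 in vestibular ENSCs, *Ntrk2* 21.5, 111.75, 102 and 92.5, and *Ntrk3* 20, 25.75, 61.25 and 22.5. Of the 7, *Dcx*, *Stmn2* and *Ntrk2* were thus highest in cochlear ENSCs and the other 4 in vestibular HCs, and the part of neuronal RNA in the signals of the members was not tested. All libraries came from cells sorted for CD326, and how far that sort removed neurons and other cells without this epithelial protein was not tested.

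On the side of the genes lower in HCs, 4 of 10 supporting cell markers fell short of ENSCs by 3-fold or more in cochlear HCs and 3 in vestibular HCs, where 1 was higher. In addition, glia, mesenchyme and endothelium markers were higher in ENSCs. Of 7 glia markers analysed here 5 were lower by 3-fold or more in cochlear HCs and 4 in vestibular HCs, and their summed signal was 2990 and 859.25 in the HCs and 3574.75 and 4086.5 in the ENSCs. The 4 mesenchyme markers summed to 113.75 and 166.75 in HCs and to 1742.5 and 1557.25 in ENSCs. *Kdr*, the endothelium marker, was at 1461.75 in vestibular ENSCs and at most 29.75 elsewhere, and *Cd68*, the macrophage marker, was at 24.75 in that library and at 20 elsewhere. *Mitf*, of melanocytes, was at 72.25 and 41.5 in HCs and at 244.25 and 247.5 in ENSCs. *Rab31* and *Vamp8* had their highest signal in the vestibular ENSCs as well, and the part of these other cells in the signals was not tested. In such bulk samples, fewer cells of a type and less RNA per cell cannot be told apart.

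Other genes of the same pathway were taken from a list of 117 vesicle priming, tethering and Rab regulatory genes, of which 105 were analysed here. At 3-fold or more, 16 were higher and 2 lower in cochlear HCs, beside 8.39% and 9.2% of all genes. In vestibular HCs 21 were higher and 14 lower, beside 13.8% and 14.3% of all genes. The ratios of these pathway genes are given without the correction for length and GC content. Of the 17 genes for priming and calcium sensing, 6 were higher and none lower in the cochlea, and 6 were higher and 3 lower in the vestibular system. *Otof*, the calcium sensor of HC synapses, had 1565.5 in cochlear HCs, 59.25 in cochlear ENSCs, 3806 in vestibular HCs and 20.25 in vestibular ENSCs. *Rph3a*, rabphilin, which binds Rab3, had 521.25, 23.5, 516 and 20, an order of libraries like that of *Syt2*. *Rims2*, a Rab3 effector of the active zone, was 25.7-fold higher in cochlear HCs (3080 against 120) and 2.58-fold in vestibular HCs (383.5 against 148.5).

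Of the 30 Rab exchange factors, GTPase-activating proteins and effectors, 3 were higher and 1 lower in cochlear HCs, and 4 were higher and 3 lower in vestibular HCs, all by 3-fold or more. *Madd*, an exchange factor of Rab3, had 258.5 in cochlear HCs, 29 in cochlear ENSCs, 223.5 in vestibular HCs and 53.5 in vestibular ENSCs. *Napb*, the neuronal SNAP protein that helps NSF take SNARE complexes apart, had 227.75, 61.75, 221 and 46.75. In contrast *Napa*, its general counterpart, was 3.61-fold lower in vestibular HCs (59 against 213.25) and 1.74-fold higher in cochlear HCs. *Unc13b*, a priming factor, was 15.2-fold lower in vestibular HCs (117.75 against 1784.75), and *Sytl2*, a Rab27 effector, 23.4-fold lower (31.5 against 737.25). Of the 9 tethers of the HOPS and CORVET complexes, which serve late endosomes, none was past 3-fold in either organ.

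Promoters of the members were searched for the X-box, the site that RFX transcription factors bind and that the study is concerned with. RefSeq promoter sequences (GRCm38.p6, from 250 bases before to 50 after the start) matched 82 of the 102 members, and *Snap25*, *Syt4*, *Syt7*, *Syt13* and *Rab36* were among the 20 that had no match. The full X-box palindrome was found in none of the 82, beside 1.75% of all 27025 genes with a promoter. Its half-site GTTGCC, read on both strands, was found in 12 of 82 members (14.6%), beside 14.1% of all genes. It occurred in 5 of the 20 members with a promoter that were higher in HCs in either organ (*Rab15*, *Rab40b*, *Snap91*, *Stx2* and *Syt1*) and in 2 of the 8 that were lower (*Stx4a* and *Vamp8*). The counts are small, and a match of 6 bases is a description of the sequence and no site. Shown here, as examples of both directions, are the half-site in *Syt1* and *Snap91*, both higher in vestibular HCs, and in *Vamp8*, lower there, in capitals and on the strand of the gene.
Syt1: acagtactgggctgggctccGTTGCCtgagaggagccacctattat
Snap91: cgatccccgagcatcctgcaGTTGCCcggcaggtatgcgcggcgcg
Vamp8: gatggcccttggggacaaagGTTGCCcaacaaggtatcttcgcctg
These stretches lie at chr10:109011062-109011107, chr9:86880753-86880798 and chr6:72390845-72390890 of GRCm38.p6, all on the minus strand, with 106, 64 and 197 bases between the half-site and the start.

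The RE1 site, bound by the repressor REST of neuronal genes, was searched by its half-sites. TCAGCACC occurred in 5 of 82 members (6.1%), beside 1.85% of all genes, and GGACAGC in 3 (3.66%), beside 7.59%. Neither was found in the 6 members with a promoter that were higher in HCs in both organs (*Rab3a*, *Rab3b*, *Rab3ip*, *Stx2*, *Syt2* and *Syt14*). With 6 genes and such low shares over all genes, finding no match cannot show that these members lack the site. *Snap25*, *Syt4*, *Syt7*, *Syt13* and *Rab36* had no promoter to search.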

How the data were processed

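RNA-seq signals of 4 libraries were analysed, 1 each for cochlear HCs, cochlear ENSCs, vestibular HCs and vestibular ENSCs, grouped by the titles of the samples. Each deposited value is a signal that the authors made from reads cut to 50 nt and placed on mm9 with TopHat. HTSeq gave counts for ENSEMBL genes, which were then quantile-normalized and raised to 20 where they were lower. The cDNA had been amplified (NuGEN Ovation), and versions and the strand setting are not given in the sources used here. The study recorded triplicates, which the paper's methods state for its microarrays and not for its RNA-seq. The table held 1 column per population and 0 columns without a sample. Whether a column is a pool, a mean or 1 replicate is not given in the sources used here. The normalization hides any overall shift between cell types.

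Log2 ratios of the signals were computed without a pseudocount, and ratios of at least 3 were counted over all 12814 genes and over the members. Values per kb used the summed exonic length of the GENCODE annotation of mm9. For each member up to 40 stretches of 50 nt were searched in the genome for other places. A tied range ended where the median of the genes' highest signal in the other libraries dropped by over 10% from one value to the next. Named were the members on a list of neurotransmitter release genes, every member past 3-fold in the same direction in both organs, members past 3-fold in opposite directions (0), and, per contrast and direction, the 3 members with the largest ratio among those with a signal of at least 200. This chose 36 members. Results that rest on some named genes are not reported here. Members and lists were chosen with earlier results of these data known. Alternatives were floors of 50 and 100, pseudocounts of 20 and 100, centring on the median, thresholds of 2 and 5, tied ranges raised to their top, a correction for length and GC content (lowess fraction 0.3, 2 robust iterations) and leaving out genes below 100 in all libraries. The ratio calls and the correction were tested on simulated data. Python 3.11.15, pandas 2.3.3, numpy 2.4.6, scipy 1.17.1, statsmodels 0.14.6 and matplotlib 3.10.9 were used.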

Additional observations from a re-analysis of the deposited data

Results flagged for a closer look

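*Vamp1* had HC to ENSC ratios of opposite direction in the organs, both at least 2-fold: its signal was 134.25 in cochlear HCs and 48 in cochlear ENSCs, but 73 in vestibular HCs and 191.75 in vestibular ENSCs. The vestibular log2 ratio minus the cochlear one was -2.88. With 1 library per population this difference was not tested.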

How the results depend on the processing

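The counts of members past 3-fold were recomputed under 10 alternatives, 100 counts in all, of which 61 stayed within 1.5 times the value above. The 39 others follow. Members higher in cochlear HCs than ENSCs numbered 25 at a threshold of 2 (24.5%, beside 16.5% of all genes) and 10 with a pseudocount of 100. Members lower in cochlear HCs numbered 1 with a floor of 50, a pseudocount of 20 or a threshold of 5, 0 with a floor or a pseudocount of 100, and 17 at a threshold of 2 (16.7%, beside 17.4% of all genes). Members lower in vestibular HCs than ENSCs numbered 2 with a floor of 100, 3 with a pseudocount of 20 or a threshold of 5, 1 with a pseudocount of 100, 4 with the length and GC correction (3.92%, beside 10%) and 22 at a threshold of 2 (21.6%, beside 24.5%). Higher in both organs were 7 members with a floor of 100 or a threshold of 5 and 6 with a pseudocount of 100, and lower in both were 0 with a floor or a pseudocount of 100 and 8 at a threshold of 2. Members higher in cochlear than vestibular HCs numbered 2 with floors of 50 and 100, both pseudocounts or a signal of at least 100, 3 with tied ranges raised, 10 at a threshold of 2 and 1 at a threshold of 5, and those lower numbered 2 with a pseudocount of 100 or a threshold of 5. Members higher in cochlear than vestibular ENSCs numbered 4 with either floor, a pseudocount of 100 or a threshold of 5 and 22 at a threshold of 2. Those lower numbered 2 with a floor of 100 or a threshold of 5, 1 with a pseudocount of 100 and 18 at a threshold of 2. The number higher in vestibular HCs than ENSCs stayed within 1.5 times under each alternative. A floor or pseudocount shrinks ratios of low signals by its construction, and the cause of the other differences was not tested.

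Of 72 HC to ENSC log2 ratios of named members (36 genes, both organs) none that was past 3-fold changed direction, and of the smaller ones *Rab27b* (vestibular, 0.58) turned to -0.26 with the length and GC correction and *Syt9* (vestibular, -0.41, HC signal tied) to 0.06 with tied ranges raised. With a floor of 50 or a pseudocount of 20, 6 fell below 3-fold, with a floor of 100 12 and with a pseudocount of 100 14. The length and GC correction took 2 below 3-fold and 4 past it. With 1 library per population no ratio has a replicate error, depth is unknown, and signals in a tied range limit a fold to a bound. No paired analysis was possible because each population has 1 library, so that the replicate number is the same throughout. A model of cell type plus organ, which would leave 1 residual degree of freedom, was not fitted.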
